A study of Danio rerio with 12 samples.

Results

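The Notch pathway and proneural genes of the zebrafish were followed in RNA-seq of whole larvae at 48 h post-fertilization (hpf). Members were taken by name. They are all rows of the count table whose gene name starts with notch, jag, ascl or neurog, or with her and a digit, or is hes6, hey1, hey2, heyl, dla, dlb, dlc, dld, dll4, mib1, neurod1 or neurod4. This rule found 42 of 25902 genes: 8 ligand genes, 5 receptor genes, 1 ubiquitin ligase gene, 3 Hey genes, 5 her4 copies, 12 other Hes and Her genes, 6 proneural factors and 2 jagunal genes. The last 2 were taken only because their name, JAGN1, starts with jag, and jagunal proteins are not Notch ligands. No row was named dla, and that gene was not analysed here. The row named DLD is counted among the 8 ligand genes, but its upper-case name is written as human symbols are. The human symbol DLD stands for a mitochondrial enzyme, so this row is most likely that enzyme and not deltaD.

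The 12 libraries form 4 groups of 3, which are apc-mcr mutant larvae given 100 nM rapamycin from 24 hpf, mutant larvae given vehicle (0.1% DMSO), WT larvae given rapamycin and WT larvae given vehicle. The apc-mcr allele truncates Apc, which raises the activity of Gsk-3 toward β-catenin on the scaffold protein Axin, and rapamycin inhibits mTORC1. Mutants are homozygotes recognised at 24 hpf by a bent body axis, so the WT groups hold wild-type and heterozygous siblings together. Each replicate holds 20 embryos according to the labels. The genotypes were compared in vehicle and again in rapamycin, and rapamycin was compared with vehicle within each genotype.

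Notch receptors are cut after they bind a Delta or Jagged ligand on a neighbouring cell, and the freed intracellular part switches on genes of the Hes, Her and Hey families, which encode transcriptional repressors. In the developing nervous system these repressors hold back proneural genes of the ascl, neurog and neurod families, which drive progenitors to become neurons and which in turn switch on Delta ligands. The same pathway shapes arteries, somites, pharyngeal arches, sensory patches and endocrine pancreas.

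Levels are given as CPM, the read count of a gene relative to the library total after TMM scaling over the 12 libraries, and they can be compared between libraries for 1 gene but not between genes, since no gene lengths were used. Total counts ranged from 51692772 to 82364863 per library. The smallest library was WT rapamycin replicate 2, in which 1 unnamed gene, ENSDARG00000089382, took 12.9% of counts. WT rapamycin replicate 2 also held the lowest value of the 12 libraries for 14.8% of genes and the highest for 13.9%. The library labelled WT rapamycin replicate 3 stood further apart. It held the lowest value of the 12 libraries for 30.8% of the 17962 genes ranked and the highest value for 26.0%, and for 36 of the members it was lowest in 9 and highest in 9. APC, the gene that carries the mutation, had 63.9 CPM in that library, against 132 and 137 CPM in the other WT rapamycin libraries, and all 6 mutant libraries lay between 73.2 and 102 CPM. The log2 fold change of APC was −0.49 in vehicle (adjusted p = 0.0153, edgeR) and −0.42 in rapamycin (adjusted p = 0.264, edgeR). A truncating allele can still be transcribed, so the APC level is no check of the genotype. Of 8 cartilage and arch marker rows tested, 3 did not overlap between the genotypes in rapamycin, where 29.1% of all genes did not. For these 3, matn1, acana and barx1, all WT rapamycin libraries, replicate 3 included, lay above all mutant rapamycin libraries. Because that library stood apart, the count of members passing in rapamycin and some single values are also given without it.

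In vehicle, the mutant larvae showed higher mRNA of 3 Notch ligands (jag2a, jag1b and dll4) and of the repressor gene her11, and lower mRNA of the proneural genes neurod1, NEUROD4 and ascl1b, of the Hey genes heyl and HEY1, and of her8a. The receptor genes, the delta genes dlb and dlc, and the her4 copies did not pass the test. With the replicate number as a block, 3 of these genes, notch2, notch1a and her4.5, were lower in mutants. Of the 42 members, 39 had enough counts to be tested. By the quasi-likelihood test of edgeR, with p-values adjusted over 22335 genes after Benjamini and Hochberg, 12 of the 39 had an adjusted p under 0.05, of which 5 were higher and 7 lower in mutants. That is 30.8% of the members tested, where 28.4% of all genes tested passed (14.8% higher and 13.6% lower), so the members passed about as often as any gene. With a change of at least 2-fold as well, 3 of the 39 passed, 2 higher and 1 lower, and 7.95% of all genes did (4.05% higher and 3.9% lower). With all 12 libraries in 1 model, 7 members passed at an adjusted p under 0.05 and 16.4% of all genes did, and the calls on jag1b, dll4, HEY1, ascl1b and 1 jagunal gene (ENSDARG00000014995) were lost. The median log2 fold change was −0.14 over the members and −0.0043 over all genes tested. Without the jagunal genes, 10 of 37 members passed at an adjusted p under 0.05, 4 higher and 6 lower. A fold change in whole larvae cannot tell fewer cells of a type from less RNA per cell.

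**Figure D1:**
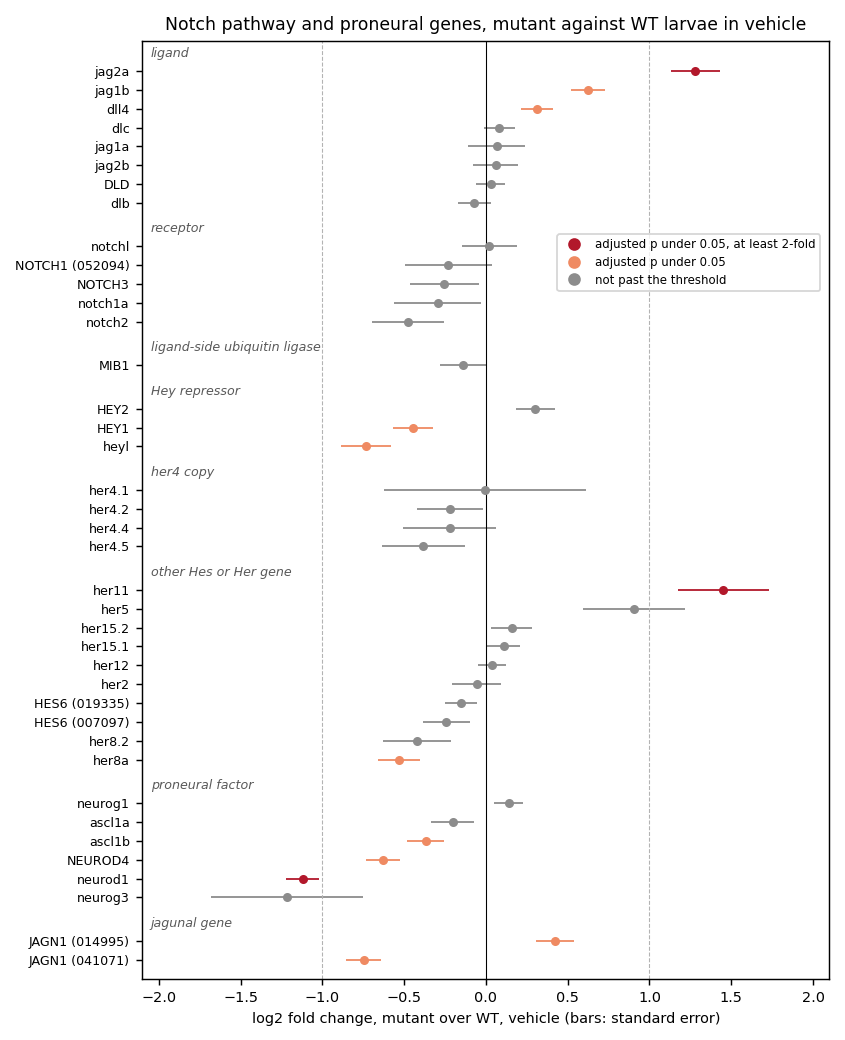
Log2 fold change of mutant over WT larvae in vehicle (x axis) for the 39 members tested, grouped by role, with bars for the standard error and dashed lines at 2-fold. The 3 dark red points, jag2a, her11 and neurod1, lie beyond 2-fold with an adjusted p under 0.05, 9 further members passed on the adjusted p alone, and neurog3 lies beyond 2-fold without passing.

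Among the 8 genes counted as ligands, the doubtful row DLD included, 3 were higher in mutants and none was lower. Of all genes, 14.8% were higher and 13.6% lower. The gene jag2a encodes a Jagged ligand which in the zebrafish pronephros keeps cells from the multiciliated fate. It had 5.60, 5.96 and 4.53 CPM in mutant vehicle libraries, against 2.39, 2.09 and 2.13 CPM in WT vehicle libraries. Every mutant library was above every WT library, and the spread within WT was small. The log2 fold change was 1.28 (standard error, SE, 0.15, adjusted p = 0.000401, edgeR), which is 2.43-fold, and it stayed between 1.20 and 1.39 as each library was left out. Of the 4 multiciliated cell markers tested, 1 (foxj1a) was higher and 1 (foxj1b) lower in mutants, where 14.8% of all genes were higher and 13.6% lower. Their summed level was 26.7 to 34.5 CPM in mutant vehicle libraries and 22.3 to 28.0 CPM in WT vehicle libraries, with no marker at 0. The part of such cells in the change of jag2a was not tested.

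The second Jagged gene, jag1b, encodes a ligand that patterns the dorsal pharyngeal arches and inner ear. Its level was 29.0, 32.2 and 24.7 CPM in mutants, against 18.4, 18.6 and 18.7 CPM in WT larvae. The WT libraries were almost level with each other and all lay below the lowest mutant library. Its log2 fold change was 0.62 (SE 0.10, adjusted p = 0.00252, edgeR). Several arch mesenchyme and cartilage markers moved the other way in the same libraries. Of 8 rows tested, none was higher and 4 were lower in mutants, where 14.8% of all genes were higher and 13.6% lower. Their log2 fold changes ran from −6.66 to 0.29. The rows stand for 6 listed genes, as sox9a and dlx2a each matched more than 1 row. The list summed to 98.4 to 193 CPM in mutant vehicle libraries, against 223 to 333 CPM in WT vehicle libraries. No marker was at 0, and the part of this difference in the level of jag1b was not tested.

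The endothelial ligand gene dll4, which restrains sprouting from arteries, changed least of the 3. Mutant vehicle libraries had 10.7, 11.3 and 12 CPM, and WT vehicle libraries had 8.69, 9.13 and 9.52 CPM. The groups did not overlap, and the log2 fold change was 0.31 (SE 0.10, adjusted p = 0.0417, edgeR). This call was lost when any 1 of the 6 libraries was left out, with adjusted p between 0.0563 and 0.139, and with upper-quartile factors. Among 5 endothelial markers, cldn5b was higher and kdrl and FLI1 were lower in mutants, where 14.8% of all genes were higher and 13.6% lower. The list summed to 118 to 124 CPM in mutant vehicle libraries and 108 to 115 CPM in WT vehicle libraries, with none at 0.

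The other 5 genes counted as ligands did not pass. The neural delta genes dlb and dlc, which newborn neurons use to hold back their neighbours, were nearly level between the genotypes. So was the row named DLD, which is most likely not deltaD. For dlb the mutant values were 89.8, 91.8 and 84.0 CPM, against 85.2, 107 and 86.2 CPM in WT, a log2 fold change of −0.07 (SE 0.10). The level of dlc was 41.7, 44.4 and 36.3 CPM in mutants, against 37.1, 41.2 and 37.2 CPM in WT, a log2 fold change of 0.08 (SE 0.09). DLD had 226, 246 and 266 CPM in mutants, against 251, 232 and 239 CPM in WT, a log2 fold change of 0.03 (SE 0.09). In all 3 the genotypes overlapped. The remaining Jagged genes gave log2 fold changes of 0.07 (jag1a, SE 0.17) and 0.06 (jag2b, SE 0.14). MIB1, the ubiquitin ligase that lets ligand-bearing cells take up Delta and so activate Notch, was at −0.14 (SE 0.14).

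None of the 5 receptor genes passed in vehicle, although 4 had a mean level below WT in mutants. The log2 fold changes were −0.48 (notch2), −0.30 (notch1a), −0.25 (NOTCH3), −0.23 (NOTCH1, ENSDARG00000052094, a row beside notch1a) and 0.02 (notchl). The highest library often had the same replicate number across the groups. NOTCH1 was highest in replicate 2 in 4 of 4 groups, and notch1a, notch2 and NOTCH3 were highest there in 3 of 4. The exception was notchl, which was highest in replicate 3 in 3 of 4. In vehicle, notch2 had 15.6, 26.1 and 13.9 CPM in mutants, against 21.6, 29.1 and 26.7 CPM in WT, and notch1a had 10.2, 19.4 and 13.1 CPM, against 11.7, 22.0 and 18.8 CPM. Each mutant library was below the WT library of the same number. Replicate numbers marked related libraries (the correlations are given with the processing), and with the replicate number as a block, edgeR gave adjusted p = 0.0128 for notch2, 0.0353 for notch1a and 0.111 for NOTCH3. Without the block the adjusted p was 0.144 for notch2, 0.459 for notch1a and 0.418 for NOTCH3. In that blocked fit 15 of the 39 members passed, the additions being notch2, notch1a and her4.5, while 36.5% of all genes passed. With the 2-fold minimum that fit called 3 members and 8.33% of all genes.

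**Figure D2:**
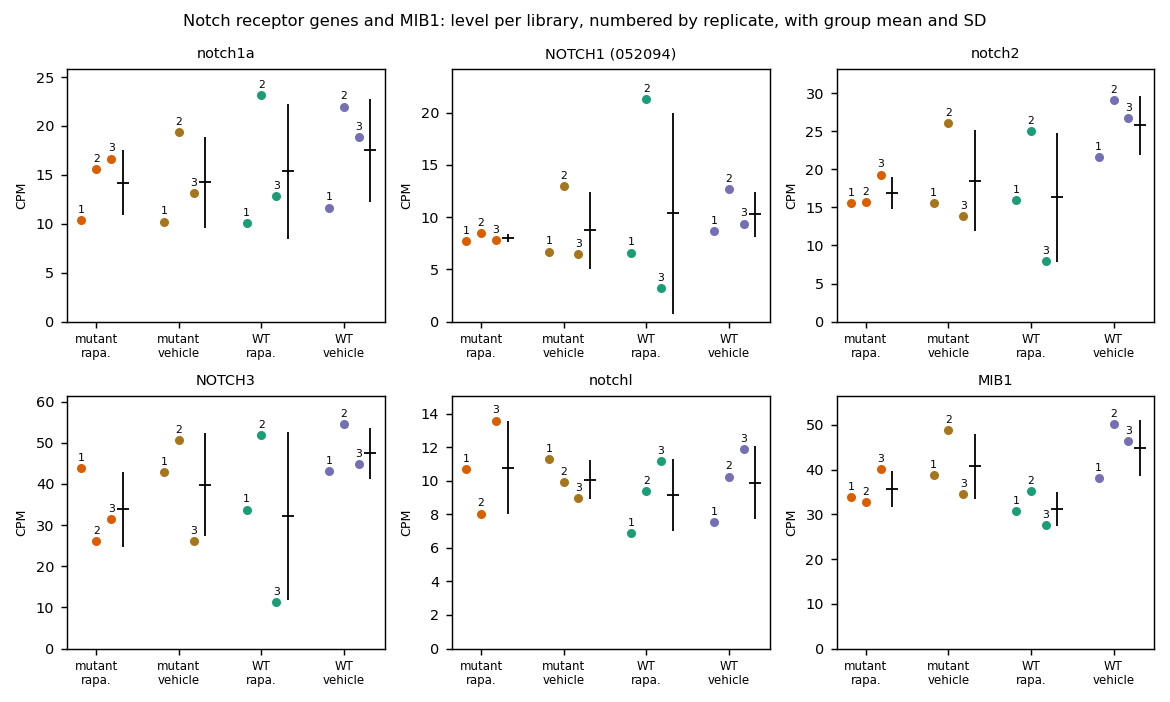
TMM-scaled CPM of the 5 Notch receptor genes and MIB1 (y axes) in each library, in the order mutant rapamycin, mutant vehicle, WT rapamycin and WT vehicle (x axes), with replicate numbers above the points and group mean and SD in black. Replicate 2 was highest in 4 of 4 groups for NOTCH1, and WT rapamycin replicate 3 was the lowest library for notch2 (7.95 CPM), NOTCH3 (11.2 CPM) and NOTCH1 (3.22 CPM).

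The 3 Hey genes, repressors that act in vessels, heart and nervous system downstream of Notch, did not move as 1 group. Both heyl and HEY1 were lower in mutants, and HEY2, known as gridlock in zebrafish for its part in artery fate, did not pass. Mutant libraries had 2.25, 3.07 and 2.75 CPM of heyl, against 4.11, 4.80 and 4.52 CPM in WT, and every mutant value was below every WT value. Its log2 fold change was −0.73 (SE 0.15, adjusted p = 0.00754, edgeR). HEY1 had 12.8, 14.6 and 11.2 CPM in mutants, against 15.6, 19.1 and 17.7 CPM in WT. The log2 fold change of HEY1 was −0.45 (SE 0.12, adjusted p = 0.0234, edgeR), and it no longer passed without mutant vehicle replicate 1 or 3 or WT vehicle replicate 2 or 3 (adjusted p between 0.0637 and 0.104). HEY2 had 7.42, 6.12 and 6.74 CPM in mutants, against 5.71, 5.64 and 5.08 CPM in WT, which did not overlap but missed the threshold (log2 fold change 0.30, SE 0.12, adjusted p = 0.0958, edgeR).

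Of the 12 Hes and Her genes outside the her4 copies, 10 were tested. In mutants 1 was higher and 1 lower, where 14.8% of all genes were higher and 13.6% lower. The gene her11 encodes a repressor active at the midbrain-hindbrain boundary, where it keeps progenitors undifferentiated, and it is also expressed in the presomitic mesoderm. It had 1.03, 0.729 and 0.785 CPM in mutants, against 0.335, 0.331 and 0.259 CPM in WT. These levels rested on 59 to 72 reads in mutant libraries and 21 to 27 reads in WT libraries, and the groups lay far apart. Its log2 fold change was 1.45 (SE 0.28, adjusted p = 0.00508, edgeR), or 2.74-fold, and stayed between 1.29 and 1.55 as each library was left out. Its genomic neighbour her5, a repressor of neurogenesis at the same boundary, had 1.03, 0.606 and 0.602 CPM in mutants, against 0.384, 0.458 and 0.345 CPM in WT. Here too the groups did not overlap, with a log2 fold change of 0.91 (SE 0.31, adjusted p = 0.0594, edgeR).

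Markers of presomitic and somitic cells were read beside her11 and did not move as 1 group. Of the 4 tested of this list in vehicle, msgn1 and myf5 were higher and MYOD1 lower in mutants. Of all genes, 14.8% were higher and 13.6% lower. The presomitic factor msgn1 had 0.876 to 1.75 CPM in mutant vehicle libraries, against 0.216 to 0.357 CPM in WT vehicle libraries, a log2 fold change of 1.98 (adjusted p = 0.00347, edgeR). The list summed to 24.7 to 31.7 CPM in mutants and 27.7 to 29.4 CPM in WT, with no marker at 0, and its part in the change of her11 was not tested. The segmentation clock genes her1 and her7 had too few reads to be tested in vehicle: her1 had 3 to 7 reads per mutant vehicle library and 5 to 6 per WT vehicle library, and her7 had 5 to 10 and 8 to 18.

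The lower gene of this family was her8a, a repressor expressed in neural progenitors. It had 8.12, 8.61 and 6.83 CPM in mutants, against 11.7, 12.5 and 9.86 CPM in WT. The groups did not overlap, and the log2 fold change was −0.53 (SE 0.13, adjusted p = 0.0152, edgeR). Without WT vehicle replicate 1 or 2 the adjusted p was 0.0537 or 0.0703. The other 7 tested were her8.2 at −0.42 (SE 0.21), the 2 rows named HES6 at −0.24 (ENSDARG00000007097) and −0.15 (ENSDARG00000019335), her2 at −0.06, her12 at 0.03, her15.1 at 0.11 and her15.2 at 0.16 on the log2 scale. HES6 proteins promote neuronal differentiation by opposing other Hes factors. The tandem copies her15.1 and her15.2 may share reads, and their summed counts gave a log2 fold change of 0.12 (SE 0.09).

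The her4 copies, Notch-responsive repressors of neural progenitors and radial glia, sit beside one another and are nearly identical, so reads can be assigned to 1 copy or another. Single copies varied strongly. The level of her4.1 ranged 13.1-fold over the 12 libraries, that of her4.5 3.34-fold, that of her4.4 3.09-fold and that of her4.2 2.52-fold, while the sum of all copies ranged only 1.6-fold. The variation followed the replicate number. In 4 of 4 groups replicate 2 had the lowest her4.1 and her4.4 and the highest her4.5 and her4.2. The share of her4.1 in the summed reads went as low as 2.62% and as high as 29.1%. Whether clutches differ in these copies or reads were divided differently between libraries was not tested. The copy her4.3 had at most 10 reads in any library and was not tested.

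**Figure D3:**
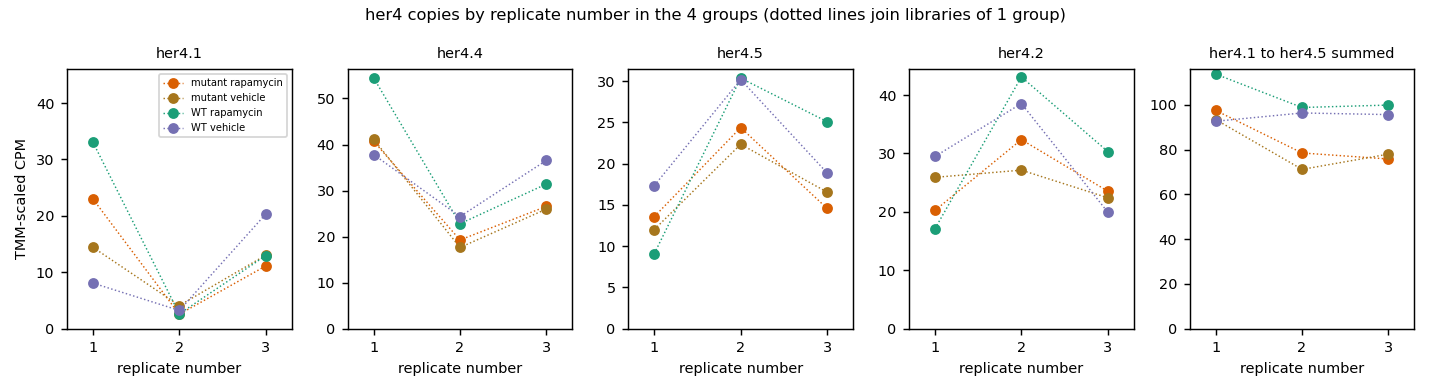
TMM-scaled CPM (y axes) of her4.1, her4.4, her4.5, her4.2 and the sum of the 5 copies, against replicate number (x axes), with 1 colour per group. Replicate 2 was lowest for her4.1 and her4.4 and highest for her4.5 and her4.2 in 4 of 4 groups, and the sum stayed between 71.2 and 114 CPM.

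In vehicle her4.1 had 14.4, 4.08 and 13.0 CPM in mutants, against 8.07, 3.21 and 20.3 CPM in WT, and her4.2 had 25.9, 27.1 and 22.4 CPM, against 29.5, 38.5 and 19.9 CPM. The level of her4.4 was 41.1, 17.6 and 26.0 CPM in mutants and 37.8, 24.3 and 36.6 CPM in WT, and that of her4.5 was 12, 22.3 and 16.5 CPM in mutants and 17.3, 30.2 and 18.9 CPM in WT. All 4 copies overlapped between the genotypes and none passed. Only her4.5, with a log2 fold change of −0.38, passed with the replicate block (adjusted p = 0.00907, edgeR), against 0.306 without it. The sum does not depend on how reads were divided among these copies, though it would on reads left out or assigned elsewhere. It was 93.5, 71.2 and 78.0 CPM in mutants, against 92.7, 96.4 and 95.7 CPM in WT. Mutant replicate 1 lay inside the WT range and the other 2 mutant libraries below it. Its log2 fold change was −0.23 (SE 0.10, adjusted p = 0.128, edgeR), with an adjusted p of 0.0646 under the block.

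Of the 6 proneural factors, 3 were lower in mutants and none was higher, where 13.6% of all genes were lower and 14.8% higher. The largest change that passed was that of neurod1, a differentiation factor of neurons, retina and endocrine pancreas. Its level was 63.0, 65.5 and 52 CPM in mutants, against 135, 126 and 131 CPM in WT. All mutant libraries lay near 1 level and all WT libraries near another, with a log2 fold change of −1.12 (SE 0.10, adjusted p = 8.65e-05, edgeR), which is 2.18-fold lower. NEUROD4, which acts in early neurons and the retina, had 90.7, 85.6 and 73.8 CPM in mutants, against 125, 141 and 120 CPM in WT. It was 1.55-fold lower without overlap, with a log2 fold change of −0.63 (SE 0.10, adjusted p = 0.00213, edgeR). The achaete-scute factor ascl1b, which specifies neural and neuroendocrine precursors, had 18.2, 16.7 and 15.6 CPM in mutants, against 21.6, 24.7 and 18.9 CPM in WT. Its log2 fold change was −0.37 (SE 0.11, adjusted p = 0.0404, edgeR), and it missed the threshold without mutant vehicle replicate 2 or 3 or WT vehicle replicate 1 or 2 (adjusted p between 0.0725 and 0.164).

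The other 3 proneural factors did not pass. The paralog ascl1a had a log2 fold change of −0.20 (SE 0.13). For neurog1, the determination factor of sensory ganglia, the values were 29.7, 26.4 and 28.5 CPM in mutants, against 25.8, 27.0 and 23.9 CPM in WT, a log2 fold change of 0.14 (SE 0.09). The reads for neurog3, the endocrine pancreas determinant of mammals, were few, with 6, 5 and 5 in mutants, against 12, 10 and 18 in WT. These counts did not overlap, but the adjusted p was 0.0835 (edgeR, log2 fold change −1.22, SE 0.47).

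**Figure D4:**
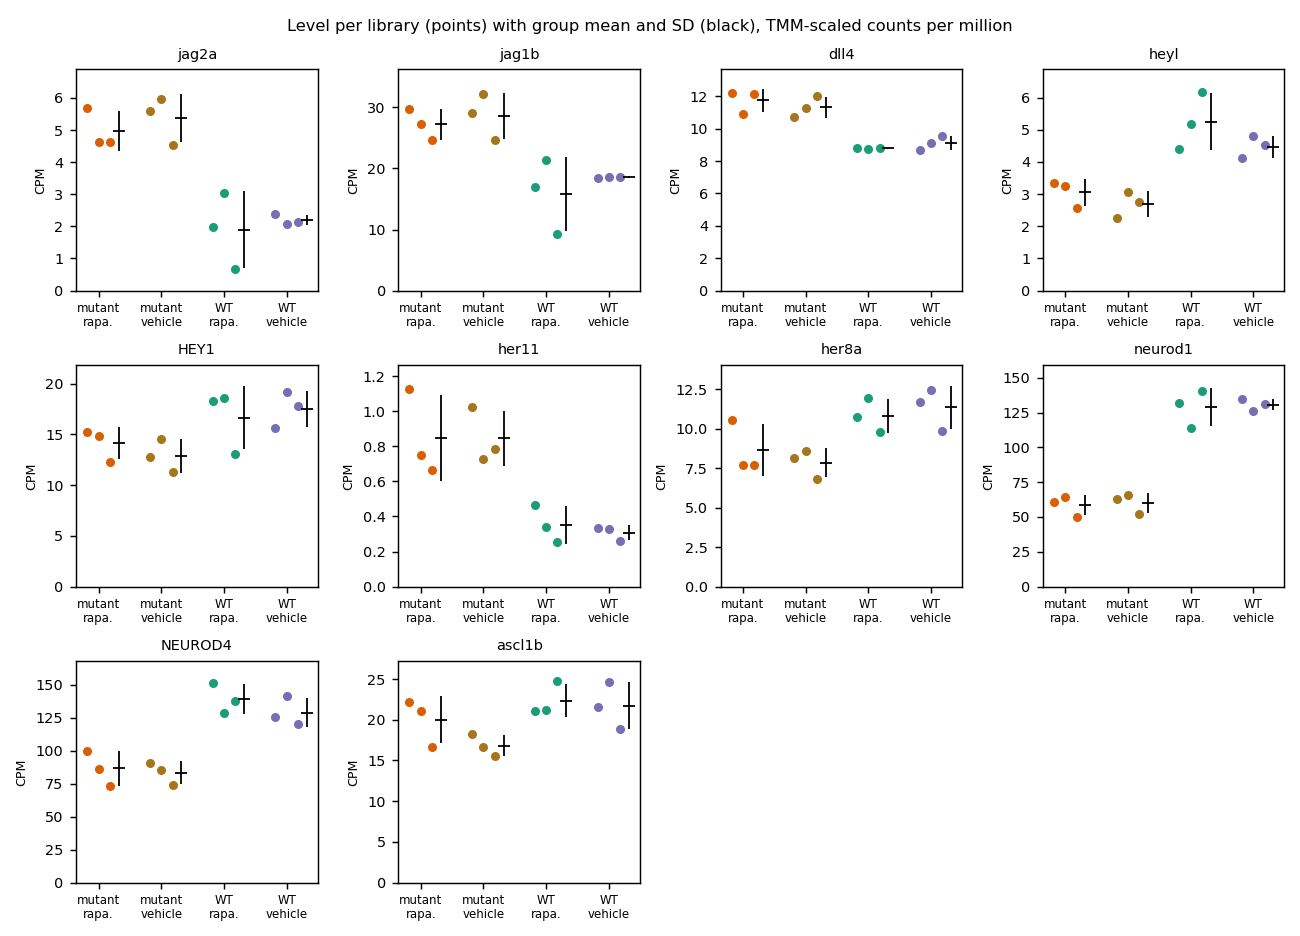
TMM-scaled CPM (y axes) per library for 10 members that passed in vehicle, in the order mutant rapamycin, mutant vehicle, WT rapamycin and WT vehicle (x axes), with group mean and SD in black. In vehicle, mutant libraries lie above WT libraries for jag2a, jag1b, dll4 and her11 and below them for heyl, HEY1, her8a, neurod1, NEUROD4 and ascl1b.

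Further neuronal genes were read from lists written for these comparisons with earlier results of these data known. Their shares are therefore description and no independent test. Of 31 other proneural and neuronal transcription factors tested, 15 passed at an adjusted p under 0.05, of which 14 were lower and 1 (atoh7, a retinal ganglion cell determinant) was higher in mutants. Of all genes, 28.4% passed, 13.6% being lower. The listed sox4b and eomesa each matched more than 1 row, and both SOX4 rows are among the 14. Over that list the median log2 change was −0.40. With the 2-fold minimum, 5 passed, all lower, where 3.9% of all genes were: atoh1c at −2.26, neurod2 at −1.74, neurod6a at −1.49, neurod6b at −1.07 and prox1a at −1.02 on the log2 scale. Thus 3 other neurod genes passed the 2-fold rule beside neurod1. The relative neurod2 had 0.955 to 1.40 CPM in mutant vehicle libraries, against 3.45 to 4.47 CPM in WT vehicle libraries, and neurod6b had 21.2 to 24.2 CPM in mutants, against 46.4 to 50.4 CPM in WT.

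Markers of the cells that carry these factors were read beside 13.6% of all genes lower and 14.8% higher. Of 8 markers of post-mitotic neurons, 5 were lower and none higher, and their sum was 446 to 531 CPM in mutant vehicle libraries and 524 to 555 CPM in WT vehicle libraries. Of 6 neural progenitor markers, 3 were lower and 1 (sox19a) higher, and their sum was 884 to 1004 CPM in mutants, against 1376 to 1482 CPM in WT. Of 8 photoreceptor markers, 4 were lower and none higher, at 14.3 to 17.8 CPM in sum in mutants, against 29.5 to 34.2 CPM in WT. Of 7 endocrine pancreas markers, 3 were lower and none higher, at 128 to 151 CPM in mutants, against 190 to 201 CPM in WT. Among them, ins had a log2 fold change of −1.09 (adjusted p = 0.000756, edgeR), and ISL1 also stands in the list of neuronal factors. The listed pax6b was matched by its human symbol, so both rows named PAX6 count there. PAX6 (ENSDARG00000045936) and ISL1 are the others of the 3 that were lower, while gcga, GCG, pdx1 and the other PAX6 row did not pass. As ISL1 is also listed as a neuronal factor, the sum does not stand for endocrine cells alone. No marker of these lists was at 0. The listed stmn2b (neurons) and rho (photoreceptors) also matched more than 1 row each. How far the levels of neurod1, NEUROD4, ascl1b and her8a followed the number of such cells was not tested.

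Of 35 other Notch pathway genes tested, 7 passed at an adjusted p under 0.05, or 20.0%, where 28.4% of all genes passed, and none was changed 2-fold. With the replicate block 11 passed, where 36.5% of all genes did, and with DESeq2 9 passed, where 28.5% did. Those higher in mutants were 2 sheddase genes that cut the receptor outside the cell, adam10a (log2 fold change 0.50) and ADAM17 (ENSDARG00000093093, 0.59), the γ-secretase catalytic subunit gene PSEN2 (0.27), and POFUT1 (0.44), whose product adds fucose to Notch. Lower were DTX4 (−0.69), a Deltex ubiquitin ligase, DNER (−0.80), a neuronal transmembrane protein with Delta-like repeats, and HELT (−0.67), a Hes-related repressor of the midbrain. Over the list the median log2 change was −0.04. The gene adam10a had 96.3 to 110 CPM in mutant vehicle libraries, against 71.4 to 74.4 CPM in WT vehicle libraries.

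The 2 jagunal genes, named JAGN1, encode endoplasmic reticulum proteins and moved in opposite directions. ENSDARG00000041071 had 12.7, 11.5 and 13.1 CPM in mutants, against 23.4, 19.2 and 20.0 CPM in WT. This was a clear separation, with a log2 fold change of −0.75 (SE 0.11, adjusted p = 0.00118, edgeR). ENSDARG00000014995 had 18.4, 16.4 and 21.6 CPM in mutants, against 13.5, 13.7 and 14.8 CPM in WT, with a log2 fold change of 0.42 (SE 0.12, adjusted p = 0.0245, edgeR). The call on ENSDARG00000014995 was lost without any 1 of 5 of the 6 libraries.

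In rapamycin, the genotypes differed in 8 members, all of them among the 12 that passed in the fit of the 6 vehicle libraries and all in the same direction. The rapamycin values come from the model of all 12 libraries, in which jag1b and dll4 did not pass in vehicle. Higher in mutants were again jag2a, jag1b, dll4 and her11, and lower were neurod1, NEUROD4, heyl and the JAGN1 row ENSDARG00000041071. These libraries are not those of the vehicle comparison, although replicate numbers mark related libraries across all groups. How often all genes that passed in vehicle kept their sign or passed again was not computed. This agreement can therefore not be called particular to the members. In that edgeR model 8 of 40 members tested had an adjusted p under 0.05, or 20.0%, where 17.4% of the 22841 genes passed (9.11% higher and 8.28% lower). With the 2-fold minimum 3 passed (jag2a, her11 and neurod1), and 7.64% of all genes did (3.84% higher and 3.8% lower). With the replicate block 8 members passed and 22.3% of all genes did, and with the 2-fold minimum 3 members and 8.05% of all genes. The median log2 fold change of the members was −0.08.

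The level of jag2a was 5.68, 4.62 and 4.61 CPM in mutant rapamycin libraries, against 1.99, 3.04 and 0.671 CPM in WT rapamycin libraries. The WT libraries were scattered, with the library labelled WT rapamycin replicate 3 lowest, yet none reached the mutants. Its log2 fold change was 1.39 (SE 0.37, adjusted p = 0.0223, edgeR) and was 1.01 (adjusted p = 0.00325) without that library. The call on jag2a was lost without mutant rapamycin replicate 1 (adjusted p = 0.0758), mutant rapamycin replicate 3 (adjusted p = 0.0506) or WT rapamycin replicate 1 (adjusted p = 0.0549). For jag1b the values were 29.7, 27.3 and 24.6 CPM in mutants, against 16.9, 21.3 and 9.26 CPM in WT. The same WT library was again lowest, and the log2 fold change was 0.78 (SE 0.23, adjusted p = 0.0338, edgeR), or 0.53 (adjusted p = 0.0117) without it. Without WT rapamycin replicate 2 it was 1.03 (adjusted p = 0.00519), which then passed the 2-fold minimum. This call was lost without any 1 of 6 other libraries, among them all 3 mutant rapamycin libraries, with adjusted p between 0.0505 and 0.111, and with upper-quartile factors.

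Mutant rapamycin libraries had 12.2, 10.9 and 12.1 CPM of dll4, and WT rapamycin libraries had 8.81, 8.76 and 8.82 CPM. The WT values were almost equal and the mutants all higher, with a log2 fold change of 0.42 (SE 0.11, adjusted p = 0.0185, edgeR). The adjusted p of dll4 passed 0.05 without mutant rapamycin replicate 1 (0.0697), mutant rapamycin replicate 3 (0.0714) or WT rapamycin replicate 2 (0.0539). For her11, mutants had 1.12, 0.751 and 0.666 CPM, against 0.467, 0.340 and 0.252 CPM in WT, without overlap. The log2 fold change of her11 was 1.25 (SE 0.32, adjusted p = 0.0182, edgeR), and 0.99 (adjusted p = 0.0868) without mutant rapamycin replicate 1. Without the library labelled WT rapamycin replicate 3 it was 1.06 (adjusted p = 0.0318).

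The lower genes were steadier. Mutants had 61.1, 64.1 and 50.1 CPM of neurod1, against 132, 114 and 141 CPM in WT, where the library labelled WT rapamycin replicate 3 was the highest. The log2 fold change of neurod1 was −1.14 (SE 0.13, adjusted p = 7.40e-05, edgeR), between −1.25 and −1.05 as each library was left out. NEUROD4 had 100.1, 85.9 and 73.4 CPM in mutants, against 151, 129 and 138 CPM in WT, with a log2 fold change of −0.69 (SE 0.13, adjusted p = 0.00340, edgeR). Mutants had 3.35, 3.24 and 2.56 CPM of heyl, against 4.40, 5.19 and 6.17 CPM in WT, a log2 fold change of −0.78 (SE 0.18, adjusted p = 0.0115, edgeR) that missed the threshold without mutant rapamycin replicate 3 (adjusted p = 0.0564). None of these genes overlapped between the genotypes. The JAGN1 row ENSDARG00000041071 was at −0.84 (SE 0.12, adjusted p = 0.000533, edgeR).

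The other 4 of the 12 members had log2 fold changes of −0.32 (her8a, adjusted p = 0.207), −0.24 (HEY1, 0.364), −0.16 (ascl1b, 0.500) and 0.09 (JAGN1, ENSDARG00000014995, 0.809) in rapamycin (edgeR). All 4 kept the sign that they had in vehicle. In the model of all 12 libraries only her8a of these 4 passed in vehicle, and the test of the difference in genotype effect called none. Without the library labelled WT rapamycin replicate 3, 10 members passed, the additions being HES6 (ENSDARG00000007097, −0.49, adjusted p = 0.0260) and that JAGN1 row (0.40, adjusted p = 0.0301). Without WT rapamycin replicate 2, 7 passed, and the call on dll4 was lost. The receptor genes lay between −0.37 (NOTCH1) and 0.24 (notchl), and all overlapped between the genotypes. For 4 of the 5, all but notchl, the direction depended on 1 WT rapamycin library. NOTCH1 was at 0.68 without replicate 2 and at −0.77 without replicate 3, and notch2 was at 0.47 and −0.26.

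**Figure D5:**
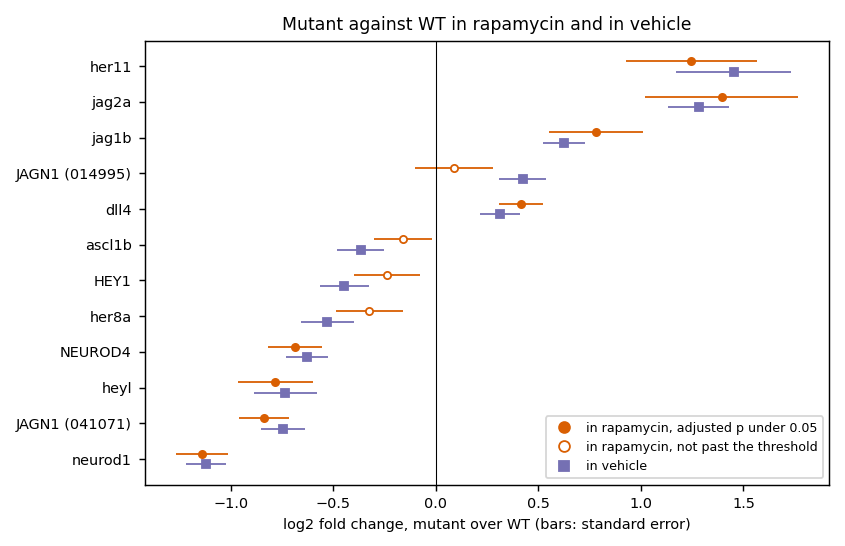
Log2 fold change of mutant over WT larvae in rapamycin (orange) and in vehicle (violet) for the 12 members that passed in the fit of the 6 vehicle libraries, with bars for the standard error. All 12 have the same sign in both conditions, and 8 passed in rapamycin in the model of all 12 libraries (filled circles). The same shares over all genes were not computed.

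The summed her4 copies had 97.5, 78.5 and 75.8 CPM in mutant rapamycin libraries, against 114, 98.8 and 99.9 CPM in WT rapamycin libraries. Mutants lay below WT without overlap, with a log2 fold change of −0.31 (SE 0.13), an adjusted p of 0.121 in edgeR and 0.0445 with the replicate block. The reads for neurog3 were 7, 3 and 4 in mutants, against 17, 5 and 9 in WT (log2 fold change −1.38, adjusted p = 0.0771, edgeR), so that the read counts overlapped although the scaled levels did not. Of the other lists, 2 of 35 other Notch pathway genes passed (adam10a higher and HELT lower) and 9 of 31 other proneural and neuronal factors, all lower, where 17.4% of all genes passed and 8.28% were lower. With the replicate block 6 of the 35 Notch pathway genes passed, where 22.3% of all genes did, and with DESeq2 5 passed, where 20.3% did. Those 9 include atoh1c, neurod2, neurod6a and neurod6b, which passed the 2-fold minimum.

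Rapamycin itself left no member past the threshold. At an adjusted p under 0.05, edgeR called 0 of 40 members and 0 of 22841 genes (0%) for rapamycin against vehicle in mutant larvae, in WT larvae, and for the difference between the genotypes in their response. DESeq2 called no member either, and over all genes it called 0 in mutant larvae, 2 in WT larvae (0.0079%) and 2 for the difference (0.0079%). At an unadjusted p under 0.05, 0 members passed in mutants (0.657% of all genes), 3 in WT larvae (6.10% of all genes) and 0 for the difference (1.59% of all genes). These comparisons share their libraries with the comparisons of genotype. They rest on the model of all 12 libraries, whose estimate of spread includes WT rapamycin replicates 2 and 3. In that model 16.4% of all genes passed between the genotypes in vehicle, against 28.4% in the fit of 6 libraries. The shares of 0.657% and 1.59% lie below what a p threshold of 0.05 gives without any effect. Small effects of rapamycin can thus be missed. Without WT rapamycin replicate 2 or 3, 0 members passed for rapamycin in WT larvae.

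The 3 members of that WT comparison were MIB1, her12 and her15.2. MIB1 had 30.7, 35.2 and 27.6 CPM in WT rapamycin libraries, against 38.1, 50.2 and 46.3 CPM in WT vehicle libraries. These groups did not overlap, and the log2 fold change was −0.53 (SE 0.16, adjusted p = 0.784, edgeR). The gene her12, a Notch-responsive repressor next to the her4 copies, had 24.8, 28.1 and 30.9 CPM in WT rapamycin libraries, against 21.7, 24.1 and 22.4 CPM in WT vehicle libraries, a log2 fold change of 0.30 (SE 0.11). For her15.2 it was 0.34 (SE 0.14), with overlap. In all, 2 of 40 members did not overlap in WT larvae, where 10.7% of all genes did not, and 0 of 40 in mutant larvae, where 4.41% did not. Between the genotypes 15 of 39 members did not overlap in vehicle, where 43.8% of all genes did not, and 9 of 40 in rapamycin, where 29.1% did not.

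For neurod1, jag2a and her11, the 3 members past 2-fold, mean levels in rapamycin were near those in vehicle in each genotype. Some others scattered more in WT rapamycin libraries. WT larvae had 16.9, 21.3 and 9.26 CPM of jag1b in rapamycin, against 18.4, 18.6 and 18.7 CPM in vehicle. For JAGN1 (ENSDARG00000014995) the WT values were 13.9, 13.0 and 22.7 CPM in rapamycin, against 13.5, 13.7 and 14.8 CPM in vehicle. The mean of neurod1 was 58.4 ± 7.35 CPM in mutant rapamycin libraries and 60.2 ± 7.17 CPM in mutant vehicle libraries (SD, n = 3 each), and 129 ± 13.7 CPM in WT rapamycin libraries and 131 ± 4.27 CPM in WT vehicle libraries. For jag2a it was 4.97 ± 0.612 CPM in mutant rapamycin and 5.36 ± 0.746 CPM in mutant vehicle libraries, and 1.90 ± 1.19 CPM in WT rapamycin and 2.2 ± 0.165 CPM in WT vehicle libraries. For her11 it was 0.847 ± 0.244 CPM in mutant rapamycin and 0.847 ± 0.158 CPM in mutant vehicle libraries, and 0.353 ± 0.108 CPM in WT rapamycin and 0.308 ± 0.0429 CPM in WT vehicle libraries. The test of the difference in genotype effect gave log2 values of −0.02 (SE 0.18) for neurod1, 0.11 (SE 0.52) for jag2a and −0.21 (SE 0.45) for her11. The standard errors of jag2a and her11 leave room for differences of over 2-fold in both.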

How the data were processed

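Poly-A RNA of 12 libraries (3 per group) was sequenced by the authors. The authors deposited estimated read counts per Ensembl gene as whole numbers without scaling. The methods name STAR with GRCz10 and the submitters' processing notes name Salmon, so the rule that divided reads between near-identical copies is not known. Of 25902 genes, 486 had no count and 2966 no name. Gene names came from the study's list of changed genes for 4 members (her11, jag2a, notch1a and neurod1) and from Ensembl for 38. Some Ensembl names are human symbols, so zebrafish members listed under other symbols (DLL1, HES1, HES3 or HES4) were not taken. The neighbours of her genes were read from a RefSeq table, used for order only. No promoter or protein sequence was used here.

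The tests were run with edgeR 4.0.16 under R 4.3.3 (TMM scaling, filterByExpr with a minimum of 10 counts, quasi-likelihood tests, Benjamini-Hochberg adjustment over all genes tested). Genotypes in vehicle were compared on 6 libraries, and the other comparisons used all 12. Calls needed an adjusted p under 0.05, and a second rule a 2-fold change. With 3 libraries against 3, an exact permutation test cannot give a p below 0.1, so none is reported. The procedure was tested on simulated data. P-values set the difference between groups against the spread between libraries. The study states 3 independent clutches. After subtraction of group means, all 18 pairs of libraries with the same replicate number correlated positively over genes (lowest 0.139, mean 0.282). The 36 pairs with different numbers were all negative (mean −0.140, highest −0.0027). Subtracting means of 3 libraries makes them negative on average once same-number pairs correlate, so they are no separate evidence. Same-numbered libraries were therefore regarded as related. The main fits did not use the replicate number, so their spread includes differences between replicate numbers. The replicate block was fitted as an alternative.

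Members and lists were chosen with earlier results of these data known. Every member is accounted for. Values per library are given for members past a threshold and for the her4, delta and neurog genes, with up to 12 members of each further list. Beyond this rule, her5, HEY2, notch1a, notch2, MIB1, her12 and single marker genes were named after their values were seen. The alternatives tried were no filter on low counts, upper-quartile or RLE factors, DESeq2 1.42.0, a filter of 10 counts in every library, the replicate block, all 12 libraries in 1 model, other fold minimums, summed copies and each library left out in turn. The count without a fold minimum was added as a result of its own after the data were seen.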

Additional observations from a re-analysis of the deposited data

How the results depend on the processing

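The 3 members past the 2-fold rule in vehicle numbered 3 to 4 as each library was left out and 12 without the fold minimum. In rapamycin the 3 became 1 to 4 (1 without mutant rapamycin replicate 1) and 8 without the fold minimum. At an adjusted p under 0.05 alone, the 12 members in vehicle became 7 with all 12 libraries in 1 model and 7 to 13 as each library was left out, and the 8 in rapamycin became 4 to 10, with 4 without mutant rapamycin replicate 1 or 3. Without the fold minimum, 7 other Notch pathway genes (0 with it, also with DESeq2; 12 at an unadjusted p under 0.05) and 15 other proneural genes (5 with it) passed. With the replicate block, 1 single copy of her4 or her15 passed in vehicle where 0 had, the members at an adjusted p under 0.05 were 15 in vehicle and 8 in rapamycin, and the counts past 2-fold were 3 and 3. The block added notch2, notch1a and her4.5 in vehicle and changed no other call on a single member in the comparisons of genotype. Direction was kept in 684 of 704 values for single members (the 39 tested in vehicle, the 8 that passed in rapamycin and 3 for rapamycin in WT larvae), and the 20 that turned belonged to 10 members in vehicle, none past the threshold. In rapamycin all 40 members were refitted after the data were seen without WT rapamycin replicate 2, when 7 turned, and without replicate 3, when 6 others turned, none past the threshold. With upper-quartile factors the log2 fold changes were −0.0346 (DLD), −0.0027 (jag2b), −0.0276 (her12) and −0.0395 (notchl), and with the replicate block her4.1 was at 0.16. As each library was left out, the log2 fold changes ran from −0.13 to 0.0531 (dlb), −0.0326 to 0.0874 (DLD), −0.59 to 0.0269 (her4.4), −0.0813 to 0.15 (jag2b), −0.14 to 0.19 (jag1a), −0.23 to 0.0236 (her2), −0.43 to 0.90 (her4.1), −0.14 to 0.18 (notchl) and −0.43 to 0.0323 (her4.2). The cause was not tested. Depth limits her1, her7, her4.3 and neurog3, which had at most 18 reads per library. The promoter motif counts were not run.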

Other observations

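Beside the her4 copies, some other members had their highest or lowest value in the same replicate number in all groups. Replicate 1 had the highest her11 and HEY2 and the lowest notch1a in 4 of 4 groups. Replicate 3 had the highest her2 and JAGN1 (ENSDARG00000014995), and replicate 2 had the highest dlb and NOTCH1 and the lowest neurog3. These counts describe 4 groups whose same-numbered libraries are related, and no test was made of them. The share of all genes with such a pattern was not computed, so nothing here is particular to the members.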
